A study of Mus musculus with 6 samples.

Results

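The miR-17-92 and miR-106b-25 clusters are 2 short stretches of mouse genome that each encode several microRNAs (miRNAs) on 1 primary transcript. Their 9 best-known mature products, mmu-miR-17-5p, mmu-miR-18a-5p, mmu-miR-19a-3p, mmu-miR-20a-5p, mmu-miR-19b-3p and mmu-miR-92a-3p from miR-17-92 and mmu-miR-106b-5p, mmu-miR-93-5p and mmu-miR-25-3p from miR-106b-25, were taken by name from the 1978 mature miRNAs listed in the count files. All 9 were listed and all 9 were counted in both libraries.

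The counts come from miRNA bound to AGO2, the Argonaute protein that holds a miRNA and its target RNA, in the cortex of VGLUT2-Cre;Spy3-AGO2 mice aged 14 days after birth. Spy3-AGO2 is a conditional allele whose tagged protein is pulled down on a SpyCatcher3 resin, and VGLUT2-Cre turns it on in any cell in which that promoter has been active. By label these are pyramidal neurons, but cortex was the tissue collected, and every library has this genotype. The series holds 6 libraries in 3 groups of 2, from bound miRNA, bound target RNA and input. Per-library counts were used for the miRNA pair, with 66854 counts in replicate 1 and 75658 in replicate 2. Whether different animals gave the replicates is not labelled, and the spread between them can be technical. With 1 group there is no control to set the members against, and fewer cells that hold a miRNA cannot be told apart from less of it per cell.

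Both clusters are known for driving proliferation. miR-17-92 is a target of MYC and E2F factors, restrains the cell death gene Bcl2l11, and in embryonic cortex promotes the expansion of neural progenitors. miR-106b-25 lies in an intron of Mcm7, which encodes a subunit of the replicative helicase, and is made together with that gene. A miRNA finds its targets mainly through its seed, bases 2 to 8 from the 5′ end, so members with the same seed can bind the same sites. A hairpin gives a 5p and a 3p product, and usually 1 of them is kept by Argonaute.

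The mature sequences are shown because they define the seed groups into which the counts were summed and show how little sequence separates some members. They are from RefSeq (GRCm38.p6, the same assembly as mm10), written 5′ to 3′ with the seed in capitals. All 9 matched by name.
mmu-miR-17-5p: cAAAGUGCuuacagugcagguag
mmu-miR-20a-5p: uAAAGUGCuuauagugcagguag
mmu-miR-106b-5p: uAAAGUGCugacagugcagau
mmu-miR-93-5p: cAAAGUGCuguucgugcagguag
mmu-miR-18a-5p: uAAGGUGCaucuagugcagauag
mmu-miR-19a-3p: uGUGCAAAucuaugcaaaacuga
mmu-miR-19b-3p: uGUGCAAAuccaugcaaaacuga
mmu-miR-92a-3p: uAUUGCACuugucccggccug
mmu-miR-25-3p: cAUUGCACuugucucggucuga
The letters give 4 groups: the miR-17 seed (AAAGUGC), with members in both clusters, the miR-18 seed (AAGGUGC), the miR-19 seed (GUGCAAA) and the miR-92 seed (AUUGCAC), again with a member in each cluster. miR-19a-3p and miR-19b-3p differ by 1 substitution, U11C (the base of miR-19a-3p, its position from the 5′ end, then the base of miR-19b-3p). miR-17-5p and miR-20a-5p differ by C1U and C12U, read the same way.

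On GRCm38.p6 the 6 hairpins of miR-17-92 lie on the plus strand at chr14:115043671-115044506, within 836 bases and in the order Mir17, Mir18, Mir19a, Mir20a, Mir19b-1, Mir92-1. The annotated span of the host lncRNA gene Mir17hg (chr14:115044390-115046728) holds the whole of Mir92-1 but none of the first 4 hairpins. The gene model therefore does not cover the whole cluster. The 3 hairpins of miR-106b-25 lie on the minus strand at chr5:138165321-138165818, within 498 bases and in the order Mir106b, Mir93, Mir25, all inside the span of Mcm7 (chr5:138164583-138172111). miR-19b-3p and miR-92a-3p are also encoded, with the same mature sequence, on the X chromosome in the paralogous miR-106a-363 cluster (Mir19b-2 and Mir92-2).

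All 9 members together took 367 counts in replicate 1 and 416 in replicate 2. That was 0.549% ± 0.000626 (SD, n = 2) of the library, and counting error alone is wider than so small an SD. miR-17-92 held 206 and 246 counts, a share of 0.317% ± 0.0120. miR-106b-25 held 161 and 170 counts, a share of 0.233% ± 0.0114 (SD, n = 2 each). Summed over all 6 members, miR-17-92 had 1.28 times those of miR-106b-25 in replicate 1 (exact 95% interval 1.04 to 1.58) and 1.45 times in replicate 2 (1.19 to 1.77). That order rests on miR-19b-3p and miR-92a-3p, which may also come from the X chromosome. The 4 members with 1 locus had 109 and 141 counts, 0.677 times those of miR-106b-25 in replicate 1 (0.526 to 0.869) and 0.829 times in replicate 2 (0.659 to 1.04). Per member, miR-17-92 was also lower, with 34.3 and 41 counts per miR-17-92 member against 53.7 and 56.7 per miR-106b-25 member. Intervals here and below cover counting error only. Reads were not deduplicated, by the name given to the counts, so 1 molecule can give several counts and the intervals are too narrow.

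The miR-17 seed held most of the members' counts. Its 4 members summed to 241 counts in replicate 1 and 275 in replicate 2, or 0.362% ± 0.00211 of the library (SD, n = 2). Within this seed the miR-106b-25 cluster contributed more than miR-17-92, because miR-17-5p and miR-20a-5p summed to 90 and 112 counts and miR-106b-5p and miR-93-5p to 151 and 163. The ratio of miR-17-92 to miR-106b-25 within the seed was 0.596 in replicate 1 (exact 95% interval 0.454 to 0.779) and 0.687 in replicate 2 (0.535 to 0.879), below 1 in both libraries. The other mature miRNAs with this seed in the RefSeq table, miR-106a-5p, miR-20b-5p and miR-6383, had 0 counts in both libraries.

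miR-106b-5p, which targets cell cycle inhibitor transcripts, was the most abundant of the 9, with 96 counts in replicate 1 and 94 in replicate 2 (0.134% ± 0.0137 of the library). It ranked 103 among the 554 miRNAs counted in either library. miR-93-5p, its neighbour on the transcript, had 55 and 69 counts (0.0867% ± 0.00632). The ratio of miR-106b-5p to miR-93-5p was 1.55 ± 0.271 (SD, n = 2), with exact 95% intervals of 1.24 to 2.48 in replicate 1 and 0.988 to 1.89 in replicate 2. The second interval includes 1, and whether the libraries differ in this ratio was not tested. miR-17-5p, the member that names the seed, had 55 and 60 counts (0.0808% ± 0.00210) and miR-20a-5p 35 and 52 counts (0.0605% ± 0.0116; SD, n = 2 each). The ratio of miR-17-5p to miR-20a-5p was 1.57 in replicate 1 (1.01 to 2.47) and 1.15 in replicate 2 (0.783 to 1.71), which also leaves their order unresolved.

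**Figure D1:**
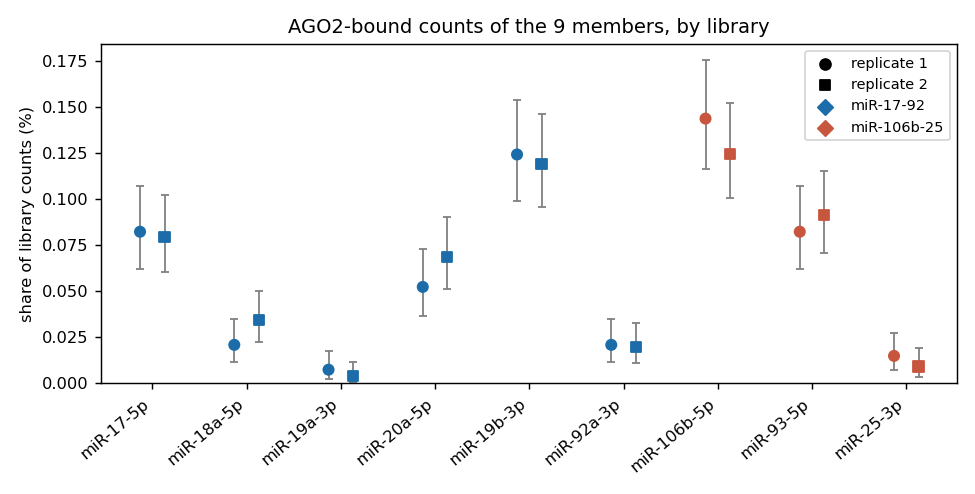
Share of library counts (%, vertical axis) of each of the 9 members, in transcript order within each cluster, with circles for replicate 1, squares for replicate 2 and bars for exact 95% intervals of counting error. miR-106b-5p and miR-19b-3p stand highest (0.134% and 0.122% on average), and miR-19a-3p and miR-25-3p lowest (0.00572% and 0.0121%).

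The miR-19 seed was carried almost wholly by 1 of its 2 members. miR-19b-3p, known in mouse lymphoma models as a main oncogenic part of the cluster, had 83 counts in replicate 1 and 90 in replicate 2 (0.122% ± 0.00367), the second highest of the 9. miR-19a-3p had 5 and 3 counts (0.00572% ± 0.00248; SD, n = 2 each), the lowest of the 9. miR-19b-3p exceeded it in both libraries, 16.6 times in replicate 1 (exact 95% interval 6.83 to 52.5) and 30 times in replicate 2 (9.94 to 148). Both lower bounds were above 1 although the pair differs only by U11C. How reads were divided between sequences 1 base apart is not given in the sources used here, and its part in this ratio was not tested. The X-linked locus of miR-19b-3p may also add to it.

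The hairpins show where the near-identical products sit, with the annotated arms in capitals.
Mir19a (chr14:115044000-115044081, plus strand): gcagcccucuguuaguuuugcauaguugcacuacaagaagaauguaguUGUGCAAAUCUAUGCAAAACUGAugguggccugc
Mir19b-1 (chr14:115044305-115044391, plus strand): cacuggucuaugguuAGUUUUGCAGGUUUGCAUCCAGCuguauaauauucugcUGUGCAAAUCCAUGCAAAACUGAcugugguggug
The 2 hairpins are separated by Mir20a alone, and that hairpin's product was counted at a level between theirs.

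miR-18a-5p, the single member with the miR-18 seed, whose hairpin is known to need the RNA-binding protein HNRNPA1 for efficient cutting in human cells, had 14 counts in replicate 1 and 26 in replicate 2 (0.0277% ± 0.00949). miR-92a-3p, a miRNA also abundant in endothelial cells, had 14 and 15 counts (0.0204% ± 0.000788), and miR-25-3p, its counterpart in the other cluster, 10 and 7 counts (0.0121% ± 0.00403; SD, n = 2 each). The miR-92 seed was therefore low in both clusters. miR-17-5p exceeded miR-92a-3p 3.93 times in replicate 1 (exact 95% interval 2.16 to 7.65) and 4 times in replicate 2 (2.24 to 7.59). miR-106b-5p exceeded miR-25-3p 9.60 times (5.00 to 20.7) and 13.4 times (6.27 to 34.3) in the same libraries.

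Counts of the miR-92 seed also came from outside the clusters. miR-32-5p, from chromosome 4, had 13 and 17 counts and miR-92b-3p, from chromosome 3, had 13 and 19, each close to miR-92a-3p. The 2 cluster members had 24 and 22 of the 50 and 58 counts with this seed, and these 2 miRNAs had the rest. The ratio of miR-92b-3p to miR-92a-3p was 0.929 in replicate 1 (exact 95% interval 0.402 to 2.13) and 1.27 in replicate 2 (0.610 to 2.68), so their levels were not resolved. For the other 3 seeds, the cluster members held all counts of the RefSeq miRNAs with that seed.

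In order of mean share, the 9 members ran miR-106b-5p, miR-19b-3p, miR-93-5p, miR-17-5p, miR-20a-5p, miR-18a-5p, miR-92a-3p, miR-25-3p and miR-19a-3p. The gap between neighbours was smaller than the larger of their SDs for miR-106b-5p and miR-19b-3p, for miR-93-5p and miR-17-5p, and for miR-18a-5p and miR-92a-3p. The other 5 gaps exceeded it, with n = 2 behind each SD. Such a gap does not settle the order, because an SD of 2 values can be smaller than counting error. Exact intervals of the ratio included 1 for miR-92a-3p over miR-25-3p in both libraries (0.578 to 3.52 and 0.822 to 6.21). That of miR-17-5p over miR-20a-5p did so in replicate 2 (0.783 to 1.71). Those of miR-20a-5p over miR-18a-5p were above 1 in both libraries. For the remaining gaps of these 5 the ratio was not computed.

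A ratio between members within a library needs no scaling of the libraries. Members with a single locus on 1 primary transcript are copied in equal number, which need not hold for miR-19b-3p and miR-92a-3p with their X-linked loci. Of the 15 pairs within miR-17-92, 11 had an exact 95% interval of the ratio above 1 in both libraries, and of the 3 pairs within miR-106b-25, 2 did. Of the 11 pairs, 7 include miR-19b-3p or miR-92a-3p. These intervals were not adjusted for the number of pairs. The pairs of miR-17-92 that were not resolved were miR-17-5p with miR-20a-5p, miR-18a-5p with miR-92a-3p, and miR-19a-3p with each of miR-18a-5p and miR-92a-3p. Counts of different miRNAs also depend on how well each sequence was ligated and amplified, which was not measured here. They are therefore ratios of AGO2-bound counts and not of molecules made.

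The shares of miR-17-92 neither rose nor fell steadily along the transcript. From the first hairpin to the last, the mean shares were 0.0808%, 0.0277%, 0.00572%, 0.0605%, 0.122% and 0.0204%. The fifth hairpin was highest and the third lowest, with Mir17 and Mir20a, both of the miR-17 seed, in between. In miR-106b-25 the shares followed the order of the hairpins, at 0.134%, 0.0867% and 0.0121%. In the order of mean share given above, the members are 42.9%, 39.1%, 52.2%, 47.8%, 39.1%, 43.5%, 57.1%, 50% and 34.8% G or C. Whether position or base composition goes with the counts was not tested.

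**Figure D2:**
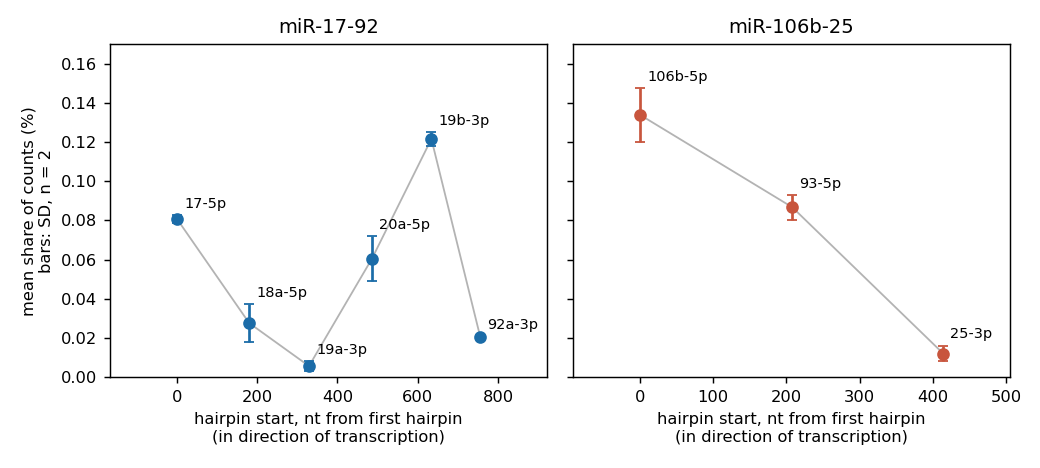
Mean share of library counts (%, vertical axis, bars are SD with n = 2) against the distance of each hairpin from the first hairpin of its cluster (nt, horizontal axis), with miR-17-92 on the left and miR-106b-25 on the right. The shares of miR-17-92 reach their highest value, 0.122%, at the fifth hairpin, and those of miR-106b-25 go down from 0.134% at the first hairpin to 0.0121% at the third.

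Unequal AGO2-bound counts of members were found in other clusters as well. Of 26 clusters compared, these 2 included, 20 had every member counted in both libraries and at least 100 counts in total, a rule chosen after the counts were seen. The highest member of miR-17-92 exceeded the lowest 23.3 ± 9.48 times and that of miR-106b-25 11.5 ± 2.71 times (SD, n = 2 each), while the median of the other 18 clusters was 2.88 times. One of them had a wider ratio than miR-17-92, miR-15b-16-2 with 40.4 ± 1.42 times. A wider ratio than that of miR-106b-25 was found in 4, among them the pair of miR-132-3p and miR-212-3p with 16.4 ± 0.105. The narrowest was that of miR-221-3p and miR-222-3p with 1.24 ± 0.238. The value of miR-17-92 rests on miR-19a-3p, without which it was 5.96, and a cluster of 6 members has more room for a wide ratio than a pair. Of the 18, 12 hold a mature miRNA that another locus also encodes, miR-16-5p of miR-15b-16-2 among them, and this comparison was not tested.

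**Figure D3:**
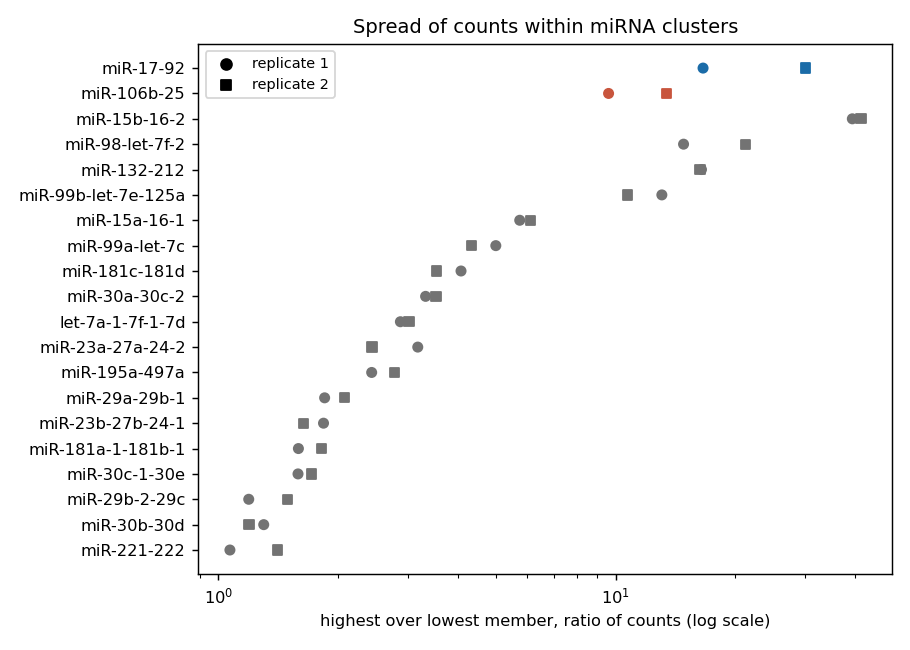
Ratio of the highest to the lowest member's counts (horizontal axis, log scale) in each of 20 miRNA clusters, with circles for replicate 1 and squares for replicate 2. miR-17-92 (16.6 and 30) and miR-106b-25 (9.60 and 13.4) are in the 2 top rows, and the other clusters run below from 40.4 to 1.24 on average.

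Each member had more counts than the opposite arm of its hairpin. Where that arm had 0 counts, only a lower bound on the ratio can be given. The low counts at Mir19a and Mir25 leave the weakest bounds, and at Mir19a none in replicate 2. Counts of miR-19b-3p and miR-92a-3p may include their X-linked loci, so at Mir19b-1 and Mir92-1 they need not come from that hairpin alone. All 9 opposite arms together had 14 counts in replicate 1 and 25 in replicate 2, against 367 and 416 for the members. An opposite arm was counted in both libraries at 2 hairpins only, Mir17 and Mir106b, whose sequences are shown with both arms in capitals.
Mir17 (chr14:115043671-115043754, plus strand): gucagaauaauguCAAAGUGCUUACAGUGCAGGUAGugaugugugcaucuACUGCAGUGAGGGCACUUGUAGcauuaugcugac
Mir106b (chr5:138165737-138165818, minus strand): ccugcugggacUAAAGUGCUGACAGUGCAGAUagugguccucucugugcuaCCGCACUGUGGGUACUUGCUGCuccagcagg
miR-17-3p had 8 and 11 counts, so miR-17-5p exceeded it 6.88 times in replicate 1 (exact 95% interval 3.26 to 16.7) and 5.45 times in replicate 2 (2.84 to 11.5). miR-106b-3p had 6 and 12 counts, so miR-106b-5p exceeded it 16 times (7.09 to 44.7) and 7.83 times (4.28 to 15.7).

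The opposite arms of Mir18, Mir19a, Mir20a, Mir19b-1, Mir92-1 and Mir25 had 0 counts in both libraries. Taking 3 counts as the most that a count of 0 allows in 1 library, miR-19b-3p was at least 27.7-fold above miR-19b-1-5p in replicate 1 and at least 30-fold in replicate 2, and miR-20a-5p was at least 11.7-fold and 17.3-fold above miR-20a-3p. For miR-18a-5p the bounds were 4.67-fold and 8.67-fold, for miR-92a-3p 4.67-fold and 5-fold, and for miR-25-3p 3.33-fold and 2.33-fold. miR-19a-3p gave a bound of 1.67-fold in replicate 1 and none in replicate 2, where its 3 counts equal the limit. These bounds take the member's own count as observed and leave out its counting error. Those of miR-19b-3p and miR-92a-3p also take all their counts as from chromosome 14, although the X-linked loci may add to them. At Mir93 the opposite arm had 0 and 2 counts beside 55 and 69 for miR-93-5p. A minor arm at 0 was common at this depth: of 137 hairpins in the files whose more abundant arm had between 8 and 190 counts summed, the range of the 9 members, 55 (40.1%) had a minor arm at 0 in both libraries. Hairpins with a locus number in 1 arm's name, such as Mir19b-1, could not be matched for that count.

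**Figure D4:**
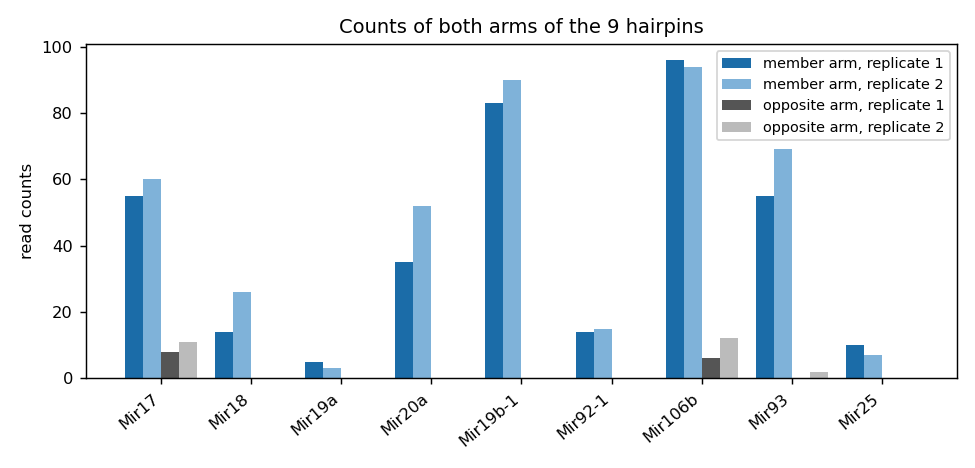
Read counts (vertical axis) of the member arm (blue) and the opposite arm (grey) of each of the 9 hairpins, with the darker bar of each colour for replicate 1 and the lighter for replicate 2. Opposite arms are visible at Mir17 (8 and 11), Mir106b (6 and 12) and Mir93 (0 and 2), and the other 6 hairpins have none. Member bars at Mir19b-1 and Mir92-1 hold all counts of miR-19b-3p and miR-92a-3p, which X-linked loci also encode.

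The X-linked paralog could add to 2 members. All 10 products that miR-106a-363 alone encodes, 4 of them the usual guide arms miR-106a-5p, miR-18b-5p, miR-20b-5p and miR-363-3p, had 0 counts in both libraries. The limit that 0 counts set was 0.00449% of library counts for replicate 1 and 0.00397% for replicate 2. The guide arms of the chromosome 14 cluster were counted in the same libraries, miR-17-5p 55 and 60 times. It differs from miR-106a-5p by U10A alone. How reads were divided between such similar sequences is not given in the sources used here. Its part in these 0 counts and their limits was not tested. miR-19b-3p and miR-92a-3p have no base that tells the loci apart, so their counts were not divided.

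The 2 libraries did not differ detectably in any member tested. An exact two-sided binomial test of replicate 1 against replicate 2, with Benjamini-Hochberg adjustment across 310 miRNAs whose summed counts reached 10, called 4 of them (1.29%), with 46 at an unadjusted p under 0.05. Of the 8 members that reached 10 counts it called 0, with 0 at an unadjusted p under 0.05. At the share of 1.29% over all miRNAs tested, a set of 8 can hold 0 called, so this says little about the members. miR-18a-5p came closest (14 against 26 counts, exact p = 0.154, adjusted p = 0.550). miR-19a-3p, with 8 counts summed, was not tested. This compares libraries and not conditions.

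Markers of other cell types were counted at levels that overlap those of the members. miR-126a-3p, an endothelial miRNA, had 87 and 99 counts (0.130% and 0.131% of the 2 libraries), near miR-19b-3p. The oligodendrocyte markers miR-219a-5p and miR-338-3p summed to 0.0344% and 0.0463%. The microglia and blood markers miR-142a-3p, miR-223-3p and miR-150-5p summed to 0.0135% and 0.0132%, with miR-223-3p at 0 in both libraries, and the erythroid markers miR-451a and miR-144-3p to 0.0150% and 0.0119%. The neuronal miRNAs miR-124-3p, miR-128-3p and miR-9-5p summed to 25.2% and 25.3%. Both clusters are also expressed in endothelial and dividing cells. How much of the members' counts came from such cells was not tested.

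The deposited list of 2197 AGO2 target peaks showed where target RNA was recovered, without values per library. Of 49 genes listed as targets of these seeds or of their pathways, 8 (16.3%) had a peak in the gene span, against 4.30% of the 21887 nuclear protein-coding genes. The lists were chosen with earlier results of these data known and were not matched to other genes for expression or length. Of the 8, 4 come from the list of 12 neuronal genes, and Phlpp2 has its only peak on the opposite strand. The 2 shares are therefore not a like comparison, and a peak in a gene does not show which miRNA bound it. No genome sequence was used here, so seed matches in peaks were not searched.

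Cell cycle genes, the best-known targets of the miR-17 seed, had a peak in 0 of 11, among them Cdkn1a, E2f1, Rb1 and Ccnd1. At the share of 4.30% over all nuclear protein-coding genes, a list this short can hold 0 genes with a peak. No list was tested against that share. Genes of PI3K signalling and survival had a peak in 2 of 8. These were Tsc1, an mTOR inhibitor (1 peak), and Phlpp2, an AKT phosphatase (1 peak, on the strand opposite to the gene), with Bcl2l11 at 0. Neither peak was near the 3′ end of its gene, with distances of 42361 bases for Tsc1 and 28279 for Phlpp2. TGF-beta and BMP genes had one in 1 of 6, the activin receptor gene Acvr1b, whose 2 peaks ended 10 and 119 bases before the end of its span. Signalling and transcription genes had one in 1 of 12, the developmental transcription factor gene Nfib, where the single peak lay in 2 overlapping spans.

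Genes listed for their role in neurons had a peak in 4 of 12. App, the amyloid precursor gene and a reported target of miR-106b and miR-17 seeds, had 9 peaks, all on the strand of the gene, of which 7 lay within 5 kb of its 3′ end. Map1b, a microtubule-associated protein gene, had 7, of which 5 lay within 5 kb of the 3′ end. Rab14, a vesicle trafficking gene, and Epha4, an axon guidance receptor gene, had 2 each. Genes that process or control the clusters, such as Drosha, Hnrnpa1, Khsrp, Lin28b and Myc, had a peak in 0 of 13, the hosts Mir17hg and Mcm7 included. This list too is short enough to hold 0 at the share of 4.30% over nuclear protein-coding genes. No peak lay within 10 kb of any hairpin of the 2 clusters or of miR-106a-363. These are short stretches of genome, which can hold 0 of the 2197 peaks. The share of like stretches with a peak was not computed.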

How the data were processed

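miRNA was measured in 2 libraries of AGO2-bound RNA, run on a gel and cut between 70 and 150 kDa, per the labels' protocols. Per the submitters' processing notes, the build was mm10 and the tools included Bowtie2 2.4.2, STAR 2.5.2a and cutadapt 2.10, with no roles. For the counting of reads that match several miRNAs, and for the peak caller, no source used here gives the method. The deposited counts are whole reads per mature miRNA, not normalized. The score column of the authors' deposited peak list is 0 throughout and was not used.

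A share is a miRNA's count divided by its library's total, with the SD over both libraries. Ratios between miRNAs and shares of a hairpin have exact (Clopper-Pearson) 95% intervals for each library (scipy 1.17.1). edgeR 4.0.16 and DESeq2 1.42.0 gave alternative library scaling only. No model across groups was fitted, because there is 1 group of counts. Peaks were credited to genes by midpoint within RefSeq spans on GRCm38.p6 (a small RNA gene's span before any other), and strands came from the RefSeq promoter table. The library test and the ratio interval were checked on simulated data.

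Members, gene lists, clusters and tests were chosen with earlier results of these data known. The text names all members, their opposite arms, the miR-106a-363 products, miRNAs of the same seeds, the extreme clusters and listed genes with a peak. The planned search for seed sites in peaks was not run. Genes named without a peak, miR-32-5p, miR-92b-3p and the pair of miR-132-3p and miR-212-3p were chosen after their values were seen. The result for 1 listed gene is not reported here.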

Additional observations from a re-analysis of the deposited data

How the results depend on the processing

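Leaving miR-128-3p out of the library total raised the share of the 9 members to 0.633%, of miR-17-92 to 0.365% and of miR-106b-25 to 0.268%, because that miRNA holds much of the library. Counting only miRNAs with at least 10 counts gave 0.547% for the 9 members, which drops miR-19a-3p. TMM or DESeq2 scaling of the totals moved these 3 shares by less than their SD. Without miR-19b-3p and miR-92a-3p the share of miR-17-92 was 0.175%, below that of miR-106b-25. The ratio of highest to lowest member in miR-17-92 was 5.96 without miR-19a-3p. Both alternatives were chosen after seeing the data. That ratio was 15.5 without the 2 members that have a second locus and 20.5 with 0.5 added to each count, both within 1 SD of 23.3. Without replicate 1 or replicate 2 it was 30 or 16.6, and for miR-106b-25 13.4 or 9.60. The count of miRNAs called between the libraries was 4, against 7 with at least 50 counts and 11 with TMM-scaled totals. It was 0 among the members tested under each of these settings, which so few members can hold when few of all miRNAs are called. Requiring at least 2 peaks left 5 of the 8 listed target genes. The share of all nuclear protein-coding genes with at least 2 peaks was not computed, so this count has nothing to be set beside. No paired analysis was possible because only the miRNA group has values per library. Depth limits miR-19a-3p and miR-25-3p most, whose counts of 3 to 10 leave wide intervals.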
